A study of Homo sapiens with 9 samples.

Results

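The transcription factors that set up and keep the lineages of the gut lining were measured in HT-29, an established line from a human colon tumour, treated with 5-aza-deoxycytidine (5-Aza), a cytosine analog that traps DNA methyltransferases and so lowers DNA methylation. The members were chosen by name, as every probe set of CDX1, CDX2, HNF4A, HNF4G, GATA6, KLF4, KLF5, ATOH1 and SPDEF, that is 9 genes. The probe table used here named 8 of them, among 19775 genes in all, through 17 of 54675 probe sets, and HNF4A was not analysed here. Monolayer cultures of the line received 10 µM 5-Aza, 5 µM 5-Aza or the DMSO vehicle alone (0 µM), with 3 cultures per group, and an Affymetrix U133 Plus 2.0 array was run on the RNA of every culture. All cultures came from this 1 tumour line, so the values describe that line and not normal colon. Unless a fold or a linear signal is named, each value below is a log2 signal or a difference between log2 signals. A signal below the median of all probe sets on its array (5.07 to 5.52 over the 9 arrays), called the floor, was treated as not distinguishable from background.

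As background, the gut lining is renewed from stem cells in the crypts, whose daughters become either absorptive cells (enterocytes, colonocytes) or secretory cells (goblet, Paneth, enteroendocrine and tuft cells). The homeobox proteins CDX1 and CDX2 give the epithelium its intestinal identity, and the nuclear receptors HNF4A and HNF4G act with them on enterocyte genes such as those of the brush border. GATA6 is a zinc finger factor of crypt and early epithelial cells. KLF5 is found in dividing crypt cells and KLF4 in cells that have stopped dividing, and both bind GC-rich and CACCC elements. ATOH1, which is held down by Notch signalling through HES proteins, commits cells to the secretory lineage, and SPDEF, an ETS family factor downstream of it, promotes goblet and Paneth cell maturation.

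Because 5-Aza acts on cytosines followed by guanine (CpG), the promoters of members whose signals were lower in treated cells (KLF5, GATA6) and of a member that stayed below the floor (CDX2) are shown first. Each sequence is the 250 bases before a transcription start in RefSeq (GRCh38.p14), 5′ to 3′ on the strand of the gene, in lower case with every CpG in capitals. Methylation was not measured in these data.
KLF5, chr13:73054726-73054975, plus strand: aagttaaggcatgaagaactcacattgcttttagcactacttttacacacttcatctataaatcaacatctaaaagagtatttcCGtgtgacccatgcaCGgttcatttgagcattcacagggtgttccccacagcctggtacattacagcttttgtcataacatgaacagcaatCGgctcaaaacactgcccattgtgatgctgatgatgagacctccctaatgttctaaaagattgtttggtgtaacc
KLF5, chr13:73058755-73059004, plus strand: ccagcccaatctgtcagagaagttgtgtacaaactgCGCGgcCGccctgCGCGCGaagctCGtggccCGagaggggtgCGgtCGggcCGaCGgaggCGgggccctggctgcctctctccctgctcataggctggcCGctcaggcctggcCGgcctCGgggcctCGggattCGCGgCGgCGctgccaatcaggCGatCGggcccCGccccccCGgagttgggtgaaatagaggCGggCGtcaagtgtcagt
GATA6, chr18:22169339-22169588, plus strand: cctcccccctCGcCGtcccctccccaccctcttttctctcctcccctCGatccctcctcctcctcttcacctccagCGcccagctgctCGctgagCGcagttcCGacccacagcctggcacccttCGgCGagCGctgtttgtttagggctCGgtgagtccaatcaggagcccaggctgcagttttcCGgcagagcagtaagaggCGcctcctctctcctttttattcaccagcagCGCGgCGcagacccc
CDX2, chr13:27969316-27969565, minus strand: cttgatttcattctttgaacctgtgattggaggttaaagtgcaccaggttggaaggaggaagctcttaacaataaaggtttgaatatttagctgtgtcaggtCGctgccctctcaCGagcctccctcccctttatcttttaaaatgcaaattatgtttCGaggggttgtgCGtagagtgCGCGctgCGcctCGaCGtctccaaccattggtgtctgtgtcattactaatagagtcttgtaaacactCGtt

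The 2 annotated starts of KLF5 differed widely in CpG content, with 3 CpG and a GC content of 40.8% in the upstream window and 27 CpG and a GC content of 70.8% in the downstream one. The GATA6 window held 16 CpG and the CDX2 window 10, where the median of 35116 such windows was 11. Of all windows, 77.1% held at least as many CpG as the first KLF5 window, 17.7% as the second, 41% as GATA6 and 52.2% as CDX2. Among members whose windows are not printed, KLF4 had 25 CpG, ATOH1 18 and SPDEF 6. Windows were also searched on both strands for short motifs. The element of the KLF family was searched as CACCC and the E-box of ATOH1 as CAGCTG. The element of the zinc finger factor was searched as AGATAA and that of the homeobox proteins as TTTATG. The half-site of the nuclear receptors was searched as CAAAGTC and the core promoter box as TATAAA. Both KLF5 windows and those of GATA6 and ATOH1 held CACCC, as did 54.7% of all windows. The windows of GATA6 and KLF4 held CAGCTG (14% of all windows), that of CDX2 held AGATAA (9.17% of all windows) and the upstream KLF5 window held TATAAA (10.7% of all windows). TTTATG was in none of the member windows named here, against 9.64% of all windows, and CAAAGTC was in none, against 2.91%. No window was used for HNF4G or CDX1.

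HNF4G was the member with the largest difference between treated and untreated cells. The gene lies on chromosome 8 and encodes a nuclear receptor that shares its DNA element with HNF4A. Its brighter probe set, 232271_at, gave 8.44, 8.45 and 8.26 at 5 µM, against 9.74, 9.61 and 9.65 at 0 µM. At 10 µM it gave 8.38, 8.75 and 8.43. All 6 treated arrays were below all 3 untreated arrays, and the 2 treated groups overlapped. HNF4G fell by 1.29 ± 0.12 (log2, SE) at 5 µM against 0 µM, which is 2.44-fold lower (95% interval of the log2 difference -1.56 to -1.01, limma adjusted p = 0.000128). It fell by 1.15 ± 0.12 at 10 µM against 0 µM, which is 2.22-fold lower (-1.43 to -0.87, limma adjusted p = 0.000438). Between 10 µM and 5 µM the difference was 0.14 ± 0.12 (-0.14 to 0.41, limma adjusted p = 0.472). The other HNF4G probe set, 207456_at, was below the floor on 9 of 9 arrays, between 0.38 and 5.12, and gives no fold. When both probe sets were averaged, the difference at 10 µM was -1.06 with a limma adjusted p of 0.166. In bulk RNA, fewer cells that express a gene and less RNA per cell cannot be told apart, here and for each gene below.

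KLF5, a zinc finger factor of proliferating crypt cells (chr13:73054976-73077538), was lower in treated cells on both of its probe sets. Probe set 209211_at gave 11.94, 12.06 and 12.01 at 5 µM, against 12.71, 12.47 and 12.41 at 0 µM. At 10 µM it gave 12.05, 12.06 and 12.10. No treated array reached the lowest untreated one. KLF5 fell by 0.53 ± 0.10 at 5 µM against 0 µM (1.44-fold, -0.76 to -0.29, limma adjusted p = 0.00503) and by 0.46 ± 0.10 at 10 µM against 0 µM (1.38-fold, -0.69 to -0.23, limma adjusted p = 0.0103). The 10 µM and 5 µM groups differed by 0.06 ± 0.10 (-0.17 to 0.30, limma adjusted p = 0.703). Probe set 209212_s_at gave 11.39, 11.43 and 11.54 at 5 µM, against 12.06, 12.11 and 12.11 at 0 µM, and averaged 11.25 ± 0.32 (SD, n = 3) at 10 µM, with all treated arrays below all untreated ones. In a fit over all 27141 tested probe sets it fell by 0.64 ± 0.16 at 5 µM (adjusted p = 0.0203) and by 0.84 ± 0.16 at 10 µM (adjusted p = 0.00728). Of all probe sets, 9.05% and 10.4% were lower at an adjusted p within 0.05. With quantile normalization, KLF5 at 10 µM was -0.24 with an adjusted p of 0.114.

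GATA6, which marks crypt and progenitor cells (chr18:22169589-22202528), was also lower at 5 µM. Probe set 210002_at gave 9.74, 9.94 and 9.77 at 5 µM, against 10.33, 10.55 and 10.21 at 0 µM. At 10 µM it gave 9.85, 10.09 and 10.05. All treated arrays were below the lowest untreated one, by the least margin at 10 µM. GATA6 fell by 0.55 ± 0.12 at 5 µM against 0 µM (1.46-fold, -0.83 to -0.27, limma adjusted p = 0.00933). At the higher dose it fell by 0.37 ± 0.12 against 0 µM (1.29-fold, -0.64 to -0.09, limma adjusted p = 0.0477), just inside the threshold. That second difference passed the adjusted p in only 9 of 25 alternative settings, and did not when any single array except 0 µM replicate 3 or 10 µM replicate 2 was left out (adjusted p 0.0637 to 0.164). The 10 µM and 5 µM groups differed by 0.18 ± 0.12 (-0.10 to 0.46, limma adjusted p = 0.335). The other GATA6 probe set, 229282_at, lay between 0.93 and 4.79 and below the floor on all 9 arrays. Averaging both probe sets turned the 5 µM difference to 0.50 (adjusted p = 0.427).

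KLF4, the family member of non-dividing surface cells and goblet cells (chr9:107484852-107489769), had its highest signals at 5 µM and its lowest at 10 µM. Probe set 221841_s_at gave 11.45, 11.54 and 11.65 at 5 µM, against 11.29, 11.39 and 11.26 at 0 µM. At 10 µM it gave 10.99, 11.18 and 11.05. The 5 µM arrays were above, and the 10 µM arrays below, every untreated array. Neither difference from 0 µM passed the test, at 0.23 ± 0.10 for 5 µM (0.01 to 0.46, limma adjusted p = 0.1) and -0.24 ± 0.10 for 10 µM (-0.47 to -0.02, limma adjusted p = 0.0879). The first depended on the setting, at -0.03 with equal array medians, 0.33 with quantile normalization (adjusted p = 0.0179) and 0.23 with array weights (adjusted p = 0.0407). The second passed with equal medians (-0.52, adjusted p = 0.025), with array weights (-0.27, adjusted p = 0.0117) and without 10 µM replicate 2 (-0.29, adjusted p = 0.0466). At 10 µM against 5 µM, KLF4 fell by 0.47 ± 0.10 (1.39-fold, -0.70 to -0.25, limma adjusted p = 0.0164). That difference no longer passed without 5 µM replicate 2 (adjusted p = 0.0582), 5 µM replicate 3 (0.073) or 10 µM replicate 3 (0.0597). The dimmer probe set 220266_s_at gave 8.02, 7.58 and 6.96 at 10 µM, against 8.02, 8.43 and 8.50 at 5 µM, and 8.11, 8.06 and 8.05 at 0 µM. Its difference between 10 µM and 5 µM was -0.80 ± 0.25 with an adjusted p of 0.0811 in the fit of probe sets, where 5.12% of all probe sets were lower.

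SPDEF, the goblet cell factor (chr6:34537802-34556329), did not pass the test in any comparison by its brightest probe set on the deposited scale. Its brightest probe set, 220192_x_at, gave 8.41, 8.53 and 8.55 at 5 µM and 8.72, 8.44 and 8.58 at 10 µM, against 8.52, 8.50 and 8.70 at 0 µM. The 3 groups overlapped. The difference was -0.08 ± 0.11 at 5 µM (-0.32 to 0.17, limma adjusted p = 0.619) and 0.01 ± 0.11 at 10 µM (-0.24 to 0.25, limma adjusted p = 0.96). Between 10 µM and 5 µM it was 0.09 ± 0.11 (-0.16 to 0.33, limma adjusted p = 0.619). Averaging the probe sets of SPDEF gave 0.68 between these doses, which passed (limma adjusted p = 0.0332). That average includes 213442_x_at, which was above the floor on 4 of 9 arrays. It averaged 5.80 ± 0.80 at 10 µM and 4.10 ± 0.42 at 5 µM, where no array reached the floor. With equal array medians the difference of 220192_x_at at 5 µM against 0 µM was -0.34 (adjusted p = 0.0483). All 5 SPDEF probe sets carry the suffix _x_at, which marks probes that can cross-hybridise. One of them, 214403_x_at, gave 6.91, 6.83 and 7.40 at 10 µM, against 5.04, 6.55 and 6.37 at 5 µM, and 6.52, 6.56 and 6.69 at 0 µM. Its 10 µM arrays were above all others, yet the difference from 5 µM, 1.06 ± 0.36, had an adjusted p of 0.0973.

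ATOH1, CDX1 and CDX2 stayed at background. For ATOH1 (chr4:93828753-93830964), probe set 221336_at gave 4.87, 4.82 and 3.96 at 0 µM, 2.14, 4.58 and 5.56 at 5 µM, and 1.93, 1.72 and 1.68 at 10 µM. The last 5 µM array was the only 1 of 9 above its floor. CDX1 (206430_at, chr5:150166778-150184558) gave 2.77, 1.32 and 3.80 at 0 µM, 4.18, 3.85 and 3.87 at 5 µM, and 3.38, 2.46 and 3.80 at 10 µM. Both CDX2 probe sets (206387_at and 231606_at, chr13:27960918-27969315) lay between 0.00 and 4.77 on every array. These 3 genes were not tested and no fold is given for them. A signal below the floor does not show that the gene was silent.

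**Figure D1:**
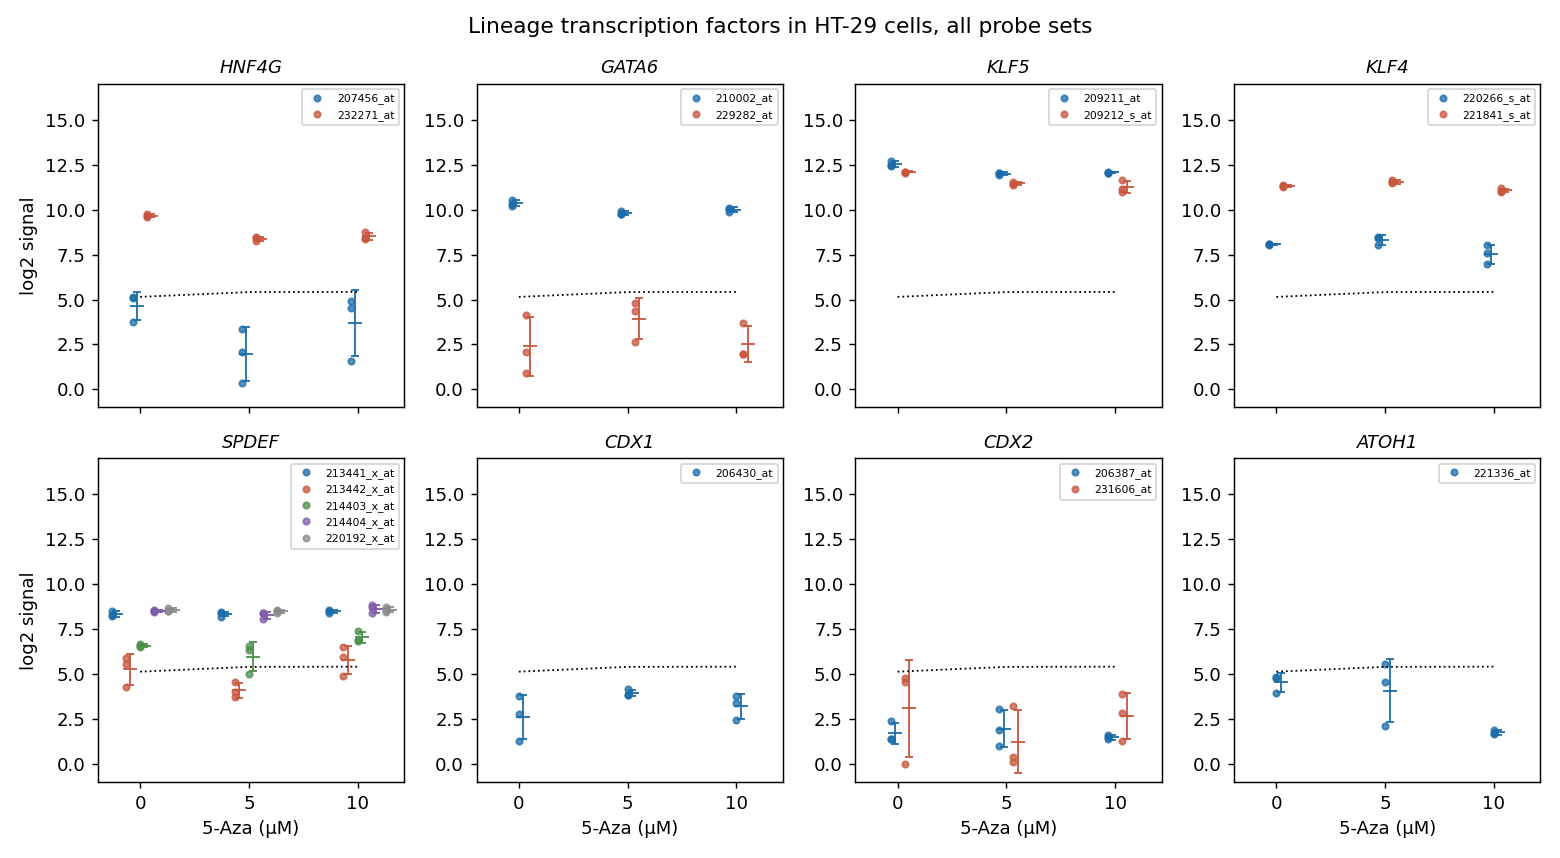
Log2 signal (y axis) of every probe set of the 8 named genes at 0, 5 and 10 µM 5-Aza (x axis). Points are the 3 arrays of a group, bars the mean ± SD, and the dotted line the mean floor. HNF4G 232271_at, GATA6 210002_at and both KLF5 probe sets were lower on all treated arrays than on untreated ones, and CDX1 and CDX2 lay under the floor throughout.

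Of the 9 members, 5 could be tested, and all 5 were above the floor in every group. At 5 µM against 0 µM, 1 of the 5 was called lower and none higher. A call means a limma adjusted p no greater than 0.05 with a change beyond 2-fold, and 1.32% of all 11756 tested genes were called lower and 8.6% higher. Without the fold threshold 3 were lower (HNF4G, KLF5 and GATA6), where 13.3% of tested genes were lower and 20.2% higher. For 4 of the 5 the groups did not overlap, against 56.4% of tested genes. The median difference of the members was -0.53, and that of all tested genes 0.04. The counts were the same at 10 µM against 0 µM. There, 1 was called lower where 1.5% of genes were (6.08% were called higher), 3 were lower without the fold threshold where 13.3% were (19.8% were higher), and 4 did not overlap where 44.5% did not. The median of the members was -0.37, against 0.05 for all tested genes. Both comparisons share the 0 µM arrays. At 10 µM against 5 µM limma called 0 members, and 1 (KLF4) had an unadjusted p under 0.05 and was also past the adjusted threshold on the lower side, where 2.08% of genes were called lower and 0.264% higher, and without the fold threshold 8.92% were lower and 6.93% higher. KLF4 was also the 1 member without overlap in that comparison, against 35.9% of tested genes.

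These differences depend on how the arrays are scaled. With every array set to the same median, the median of all tested genes moved to -0.22 at 5 µM and -0.23 at 10 µM against 0 µM. The called genes then split into 721 higher and 443 lower at 5 µM, where the deposited scale gave 1011 and 155, and into 458 and 475 at 10 µM, where it gave 715 and 176. HNF4G, KLF5 and GATA6 passed the test as lower at 5 µM against 0 µM under the deposited scale, equal medians and quantile normalization. At 10 µM against 0 µM all 3 passed with equal medians, and HNF4G alone with quantile normalization, where GATA6 was -0.33 (adjusted p = 0.0574). A sign of RNA quality moved with the dose as well. On the actin control probes, the log2 excess of 3′ over 5′ signal was 2.09 ± 0.19, 2.59 ± 0.10 and 2.98 ± 0.16 (SD, n = 3 each) at 0, 5 and 10 µM. With it as a covariate HNF4G alone among members passed at 5 µM, and 0 genes of the whole array passed at 10 µM against 0 µM. Of 24 named list genes called at 5 µM against 0 µM, 11 lost the call with this covariate (APOA2, CDHR2, CLCA1, DEFA6, GPA33, INSM1, KLF9, MYB, MYC, PAX4 and ZG16), as did all 18 at 10 µM against 0 µM and all 9 at 10 µM against 5 µM. Its part in the results cannot be told apart from the dose.

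**Figure D2:**
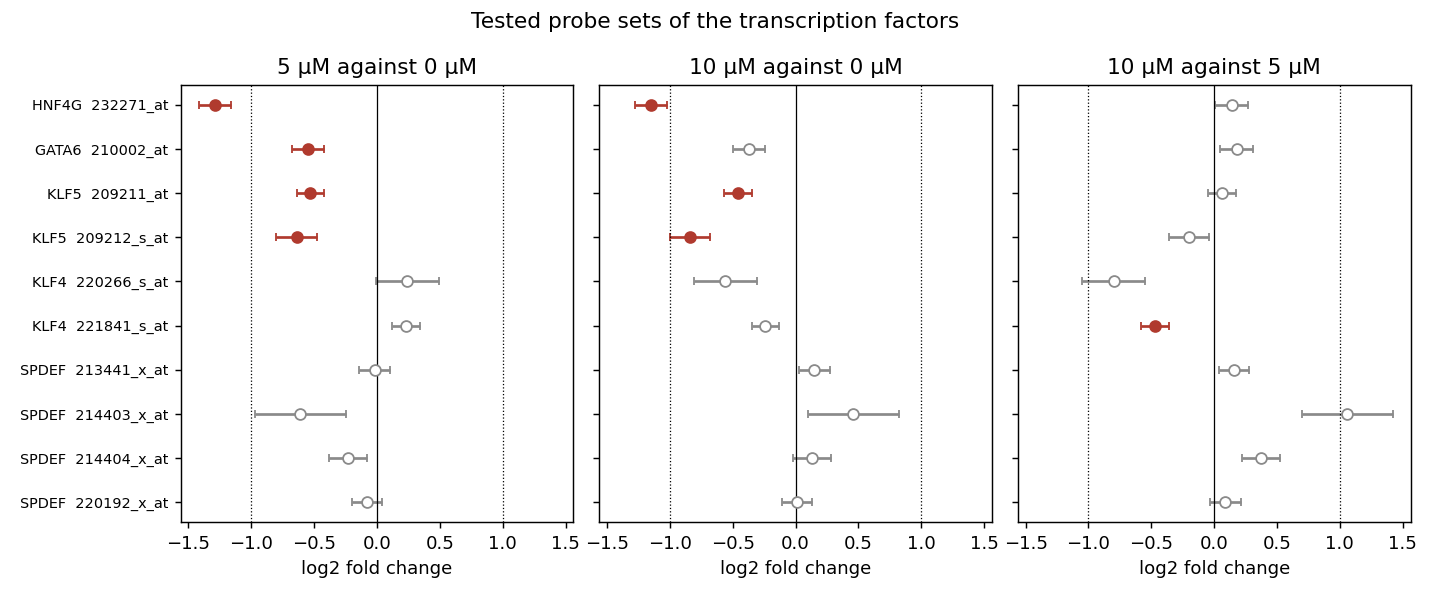
Log2 fold change (x axis) with SE of each of the 10 tested member probe sets, from the fit over 27141 probe sets, in the 3 comparisons. Filled red points have an adjusted p of at most 0.05 and dotted lines mark 2-fold; HNF4G alone lies past 2-fold with such a p, and GATA6 at 10 µM, at -0.37, has an adjusted p of 0.0671 here.

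HNF4G was the only called member, and the 3 genes whose centred signals over the 9 arrays were nearest to it were ACSM3, LINC01234 and ETHE1. Nearness was the root mean square difference, 0.09 for ACSM3 and 0.11 for each of the other genes. ACSM3, a mitochondrial medium-chain acyl-CoA synthetase, averaged 8.45, 7.22 and 7.39 at 0, 5 and 10 µM. LINC01234, a long noncoding RNA, averaged 7.96, 6.89 and 6.98. ETHE1, a mitochondrial sulfur dioxygenase that acts in sulfide disposal in the colon, averaged 10.71, 9.53 and 9.61. The likeness is a description over these 9 arrays.

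Other transcription factors of gut lineages went both ways. Over all tested genes, 20.2% were higher and 13.3% lower by the adjusted p at 5 µM against 0 µM, 19.8% and 13.3% at 10 µM against 0 µM, and 6.93% and 8.92% at 10 µM against 5 µM. Of 22 tested, 6 were higher and 9 lower at 5 µM against 0 µM by the adjusted p alone. In each direction 2 were called, where 8.6% of all tested genes were called higher and 1.32% lower. The median difference of the 22 was -0.28. NKX2-2, an enteroendocrine factor, averaged 5.92 ± 0.12 at 5 µM and 0.73 ± 0.62 at 0 µM (SD, n = 3 each). The fold is given as a bound, at least 1.7-fold higher, since 0 µM was below the floor. For such genes the bound raises each dim signal to the floor of its array, and a p printed beside it belongs to the fitted difference. For NKX2-2 that was 5.19 ± 0.27 (limma adjusted p = 6.81e-06). With low signals raised to the floor it was 0.77 (adjusted p = 0.000925), and the call was lost. At 10 µM NKX2-2 averaged 5.38 ± 0.21, at least 1.17-fold higher than at 0 µM. INSM1, a zinc finger factor of endocrine cells, averaged 6.25 ± 0.25 at 5 µM and 4.92 ± 0.19 at 0 µM, where 1 of 3 arrays was above its floor, so that the fitted difference of 1.34 ± 0.27 (adjusted p = 0.00561) rests on signals near background. PAX4, another endocrine factor, averaged 4.81 ± 0.27 at 5 µM and 6.59 ± 0.64 at 0 µM, at least 2.26-fold lower. MYB, a factor of crypt progenitors, averaged 7.33 ± 0.09 at 5 µM and 8.49 ± 0.02 at 0 µM, a fall of 1.16 ± 0.10 (adjusted p = 7.08e-05). In the 10 µM cells 1 was higher and 8 lower than at 0 µM (median -0.45). BHLHA15, a secretory cell factor, fell by 1.22 ± 0.16 at 10 µM against 0 µM (adjusted p = 0.000956) and by 1.43 ± 0.16 at 10 µM against 5 µM (adjusted p = 0.00238). ELF3, an epithelial ETS factor, fell by 1.04 ± 0.15 at 10 µM against 0 µM (adjusted p = 0.00152), and the call was lost without 0 µM replicate 3 or 10 µM replicate 2, where its difference was -0.92.

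Among the other KLF genes, 11 were tested. By the adjusted p, 2 were higher and 1 lower at 5 µM against 0 µM, where 20.2% and 13.3% of all tested genes were. KLF9, a glucocorticoid-responsive factor, averaged 8.35 ± 0.05 at 5 µM and 7.03 ± 0.25 at 0 µM, a rise of 1.32 ± 0.15 (limma adjusted p = 0.000292). The 10 µM cells had 2 higher and 2 lower than at 0 µM, where 19.8% and 13.3% of all tested genes were. Of all tested genes, 1.5% were called lower there. KLF16 was the 1 called, at -1.02 ± 0.27 (adjusted p = 0.0212), and this call was lost without any single 0 µM array (adjusted p 0.0503 to 0.0626). Without 10 µM replicate 3 its difference was -0.67. The medians of the family were -0.01 and -0.17 at 5 and 10 µM.

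Genes that respond to KLF4 and KLF5 in other systems also split. Of 13 tested, 4 were higher and 3 lower at 5 µM against 0 µM by the adjusted p, with a median of 0.03. Of all tested genes, 20.2% were higher and 13.3% lower. CDKN1A, the cyclin-dependent kinase inhibitor p21 that KLF4 activates, averaged 9.86 ± 0.10 at 5 µM and 8.32 ± 0.18 at 0 µM, a rise of 1.54 ± 0.16 (limma adjusted p = 0.000221). It averaged 8.70 ± 0.30 at 10 µM, a fall of 1.16 ± 0.16 from 5 µM (adjusted p = 0.00478). CCNE1, the G1/S cyclin E1 that KLF4 represses, rose by 1.39 ± 0.14 at 5 µM (adjusted p = 0.000175). The keratin gene KRT19 averaged 11.83 ± 0.03 at 5 µM and 13.36 ± 0.04 at 0 µM, although averaging its probe sets gave -0.54 with an adjusted p of 0.429. MYC fell by 1.19 ± 0.13 at 5 µM (adjusted p = 0.000234). Of the same 13, 1 was higher and 5 lower at 10 µM against 0 µM, where 19.8% and 13.3% of all tested genes were. BIRC5, the mitotic survival protein survivin, averaged 5.93 ± 0.39 at 10 µM and 7.42 ± 0.33 at 0 µM, a fall of 1.49 ± 0.24 (adjusted p = 0.00253). Averaging its probe sets gave -0.94 (adjusted p = 0.0641), and the methods' t-test gave BIRC5 an adjusted p of 0.0536. CCNB1, the mitotic cyclin B1, fell by 1.38 ± 0.17 at 10 µM against 5 µM (adjusted p = 0.00318).

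Secretory genes are the class that lies downstream of ATOH1 and SPDEF. Of 29 tested, 13 were higher and 4 lower at 5 µM against 0 µM, where 20.2% and 13.3% of all tested genes were, and the median was 0.64. Called were 10 higher and 0 lower, where 8.6% and 1.32% of all tested genes were. Of those called, SPINK4, ZG16, CLCA1, DEFA6 and MUC5B were below the floor on all 3 untreated arrays. B3GNT6 was above it on 1 of 3 and REG4 on 2 of 3. These genes were tested only through treated arrays, so the filter itself favours a higher call for them. The same holds for NKX2-2 above and for ANPEP and SOX2 below. The 4 lower by limma without the fold threshold were GCNT3 (-0.54), SLITRK6 (-0.52), LYZ (-0.48) and AGR3 (-0.42). SPINK4, a goblet cell protease inhibitor, averaged 7.88 ± 0.30 at 5 µM and 4.64 ± 0.50 at 0 µM, at least 6.64-fold higher (limma adjusted p = 4.99e-05). At 10 µM it averaged 6.98 ± 0.19, at least 3.57-fold higher than at 0 µM. The goblet cell lectin ZG16 was at least 2.55-fold higher at 5 µM, the Paneth cell defensin DEFA6 at least 2.99-fold, and the goblet cell protein CLCA1 at least 2-fold. At 10 µM DEFA6 averaged 4.07 ± 1.57, with 1 of 3 arrays above the floor (limma adjusted p = 0.427 against 0 µM). With the actin covariate 5 secretory genes were called higher at 5 µM against 0 µM, where 559 of all 11756 tested genes were. The fitted difference was then 1.13 for DEFA6 (adjusted p = 0.681), 2.64 for ZG16 (adjusted p = 0.225) and 3.33 for CLCA1 (adjusted p = 0.0501). Against 0 µM, the 10 µM cells had 10 higher and 5 lower, where 19.8% and 13.3% of all tested genes were, and the median was 0.33. ZG16, counted among the higher (limma adjusted p = 0.0297), was below the floor on all arrays of both groups, at 4.37 ± 1.27 and 2.08 ± 0.84. REG4, a secreted lectin of enteroendocrine and goblet cells, rose by 2.36 ± 0.30 (adjusted p = 0.000963), with 2 of 3 untreated arrays above the floor, and TFF1, a trefoil peptide, by 1.66 ± 0.13 (adjusted p = 0.000119). The 5 lower were AGR3 (-0.96), AGR2 (-0.92), MUC2 (-0.86, limma adjusted p = 0.0458), BCAS1 (-0.36) and GCNT3 (-0.31). At 10 µM against 5 µM 2 were higher and 11 lower, where 6.93% and 8.92% of all tested genes were, with a median of -0.54. MUC2, the main goblet cell mucin, averaged 6.40 ± 0.63 at 10 µM and 7.90 ± 0.18 at 5 µM, 2.83-fold lower (adjusted p = 0.0123, and 0.0503 without 5 µM replicate 2). In the same arrays ATOH1 was at background, and SPDEF did not pass the test by its brightest probe set on the deposited scale.

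Enterocyte genes are the class that CDX and HNF4 factors act on. Of 36 on the array only 18 passed the floor filter and were tested, so the counts leave out the dim ones. FABP1, SI, LCT, ALPI, GUCY2C, SLC26A3, MEP1A and PHGR1 were below the floor on every array. FABP2 and CA1, also not tested, were above it on some arrays. The 18 tested members had a median of 0.23 at 5 µM against 0 µM. By the adjusted p, 7 were higher and 5 lower there, where 20.2% and 13.3% of all tested genes were. ANPEP, the brush border aminopeptidase N, averaged 7.05 ± 0.30 at 5 µM and 1.91 ± 1.40 at 0 µM, at least 3.75-fold higher (limma adjusted p = 0.000501). The protocadherin CDHR2, which links microvilli, rose by 1.68 ± 0.34 (adjusted p = 0.00562). The CDHR2 call was lost with the methods' t-test (adjusted p = 0.0512) and with the actin covariate (0.90, adjusted p = 0.432). CEACAM5, a cell surface glycoprotein of colonocytes, rose by 1.67 ± 0.13 (adjusted p = 3.98e-05), although averaging its probe sets gave 0.68 with an adjusted p of 0.103. GPA33, a cell surface antigen of the gut epithelium that CDX1 is known to activate, averaged 4.29 ± 1.24 at 5 µM and 6.03 ± 0.09 at 0 µM, at least 1.53-fold lower. Its adjusted p was 0.0299, and without 0 µM replicates 1, 2 and 3 in turn it was 0.0698, 0.072 and 0.0742. With low signals raised to the floor the GPA33 difference was -0.61 (limma adjusted p = 0.000956), and the call was lost. HEPH, the iron oxidase hephaestin, was the other called fall, at -1.24 ± 0.11, and is named because it completes the count. In 10 µM cells 4 were higher and 3 lower than at 0 µM (median 0.07), where 19.8% and 13.3% of all tested genes were. CDHR5, the partner of CDHR2 at microvillus tips, rose by 1.07 ± 0.24 (adjusted p = 0.0113) and was no longer past 2-fold without 10 µM replicate 1 (0.84) or replicate 3.

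Notch pathway genes, which act upstream of ATOH1, had 16 tested members. At 5 µM against 0 µM 4 were higher and 3 lower by the adjusted p, with a median of 0.05, and at 10 µM 4 and 3, with a median of 0.03. Of all tested genes, 20.2% were higher and 13.3% lower at 5 µM, and 19.8% and 13.3% at 10 µM. HES4, a repressor of the HES family, averaged 8.33 ± 0.18 at 5 µM and 6.16 ± 0.04 at 0 µM, a rise of 2.17 ± 0.27 (limma adjusted p = 0.000566). Its rise at 10 µM was 1.24 ± 0.27 (adjusted p = 0.00974) and 0.88 without 10 µM replicate 1. The brighter HES1, of the same family, went the other way, from 11.59 ± 0.08 at 0 µM. It fell by 0.35 ± 0.11 at 5 µM (limma adjusted p = 0.0403) and by 0.65 ± 0.11 at 10 µM (adjusted p = 0.00333), short of a call. MAML2, a coactivator of the Notch intracellular domain, averaged 7.0 ± 0.14 at 5 µM and 8.11 ± 0.07 at 0 µM, a fall of 1.11 ± 0.10 (adjusted p = 0.000104). It averaged 7.80 ± 0.05 at 10 µM.

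**Figure D3:**
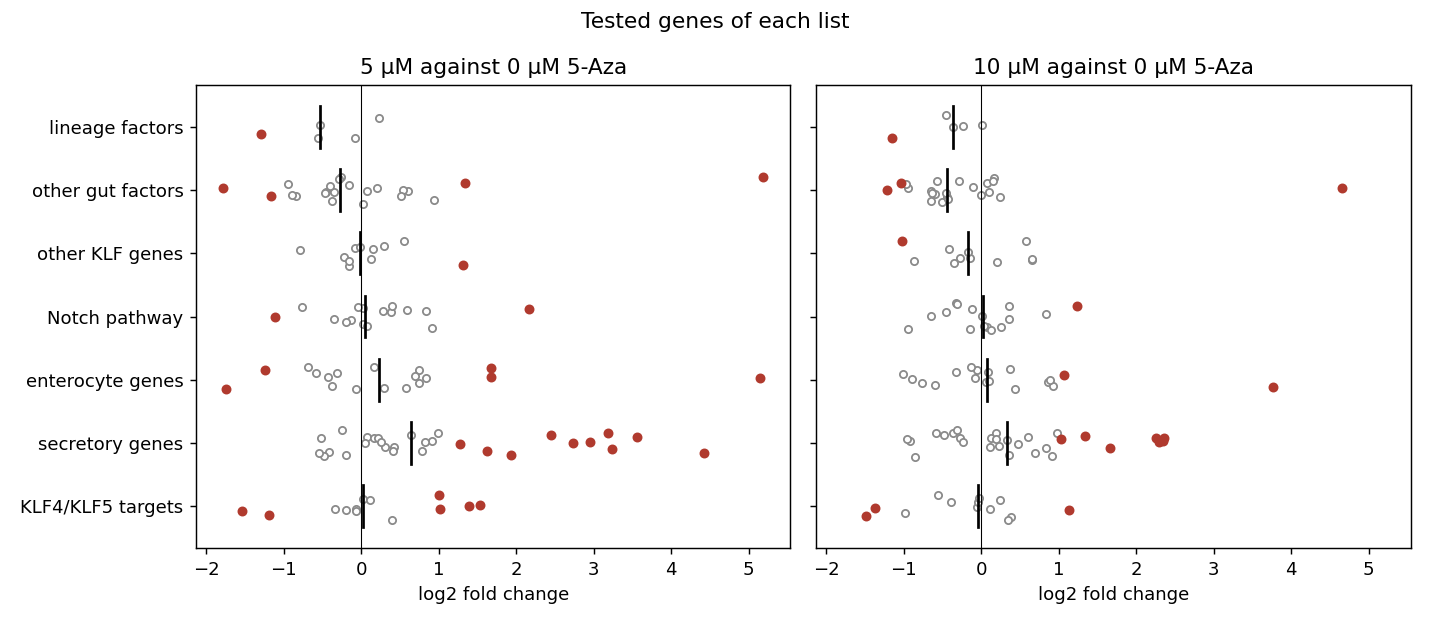
Log2 fold change (x axis) of each tested gene of 7 lists at 5 µM (left) and 10 µM (right) against 0 µM 5-Aza. Red points were called and black bars are list medians; points of genes below the floor at 0 µM, such as NKX2-2 and ANPEP, are fitted values with no bound. Medians run from -0.53 for the lineage factors to 0.64 for secretory genes at 5 µM.

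The 10 markers of colon epithelium, which did not include the enterocyte genes FABP1, SI, LCT and ALPI at background, bore out the labelled cell type. Above the floor were 10 of 10 on all 0 µM arrays and 9 of 10 at 5 µM and at 10 µM, GPA33 being the exception. Their summed linear signal was 64718 to 73171 at 5 µM and 58651 to 66807 at 10 µM, against 86636 to 89948 at 0 µM, so it was lower on all treated arrays, as the signals of HNF4G, KLF5 and GATA6 were. The part of this in the results was not tested. KRT18 carried 21.4% to 29.8% of the sum, and without KRT18 it was 50845 to 56990 at 5 µM and 41164 to 48590 at 10 µM, against 66409 to 68360 at 0 µM. The markers did not move together. By the adjusted p at 5 µM against 0 µM, 5 of the 10 were lower and 2 higher, CEACAM5 by 1.67 and CDH17 by 0.75. Of all tested genes, 13.3% were lower and 20.2% higher. Markers of cells in which HNF4 and GATA factors also act were mostly at background. Of 15 liver markers 2, 3 and 2 were above the floor on all arrays at 0, 5 and 10 µM, with albumin and alpha-fetoprotein below it on 9 of 9 arrays, and their summed linear signal was 2030 to 2305 at 5 µM and 2114 to 2438 at 10 µM, against 2091 to 2163 at 0 µM. APOH made up 75.6% to 83.2% of that sum. Of 11 stomach markers 3, 4 and 4 were above it, with GKN1 and ATP4A below it on 9 of 9 arrays. Their sum was 2372 to 2560 at 5 µM and 1260 to 1822 at 10 µM, against 1577 to 1754 at 0 µM. The mucin MUC5AC, which is also in the secretory list, carried 67.8% to 86.9% of this sum, and without it the sum was 559 to 598 at 5 µM and 372 to 433 at 10 µM, against 210 to 234 at 0 µM. SOX2, a foregut factor, was at least 2.9-fold higher at 5 µM and at least 1.45-fold higher at 10 µM. Of 15 markers of fibroblasts, endothelium and blood 6, 5 and 5 were above the floor, with COL3A1, THY1, PTPRC and VWF below it on 9 of 9 arrays. Their sum was 10157 to 11304 at 5 µM and 11469 to 12617 at 10 µM, against 13352 to 14107 at 0 µM. Lysozyme (LYZ), which is also in the secretory list, carried 86.1% to 96.3% of this sum, and without it the sum ran the other way, at 1294 to 1407 at 5 µM and 802 to 1007 at 10 µM, against 506 to 665 at 0 µM. COL1A1 rose by 2.68 ± 0.26 at 5 µM (limma adjusted p = 0.00014).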

How the data were processed

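Total RNA of 9 HT-29 cultures, 3 per dose, was biotin labelled and hybridised to 1 array each. The values the authors deposited are log2 signals. The submitters' notes name RMA and affy 1.14.2, but the deposited values have the form of MAS 5.0 signals: multiples of 0.1 on the linear scale (checked for log2 signals up to 3, within 0.005), 2% trimmed means of 250.0 on each, and sorted values that differ between arrays by up to 1.58. Dim genes are therefore noisy. Probe sets with a missing value (6) were left out. Probe sets were named with the platform table and RefSeq symbols (41091 with 1 gene, 1801 with several, 11721 with none, 62 controls), and each of 19775 genes was represented by the probe set of highest mean over all arrays. Genes at or above the array median on all 3 arrays of at least 1 group (11756) were tested two-sided with limma 3.58.1 (lmFit and eBayes, R 4.3.3) on all 9 arrays, with Benjamini-Hochberg adjustment over all of them, and a call needed an adjusted p no greater than 0.05 and a change beyond 2-fold, both thresholds of the study's own methods, as is eBayes. The number of arrays limits the precision.

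The members, the gene lists, the tests and the naming rule were chosen with earlier results of these data known. Named are all members, up to 4 called genes of each list and comparison with the largest difference (where none was called, 2 with the smallest p), and the 3 genes nearest to each called member. The text prints part of them, and some other genes of the lists that passed the adjusted p in the other direction. Called genes whose groups overlap were not named. Liver, stomach, fibroblast, endothelial and blood markers were summed as linear signals. The scripts were tested on simulated data. Alternatives covered the filter, the floor, the probe set rule, the model, the normalization, the RNA integrity covariate and each array left out. Leaving out 10 µM replicates 2 and 3 together was added after seeing the data.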

Additional observations from a re-analysis of the deposited data

How the results depend on the processing

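At 5 µM against 0 µM, the count of 1 called member held under all alternatives but that without a fold threshold, which gave 3, and the count of 3 members past the adjusted p became 1 (HNF4G) with the actin covariate, 2 with averaged probe sets (HNF4G, KLF5), 4 with array weights or quantile normalization (KLF4 higher added) and 4 with equal medians (SPDEF lower added). HNF4G passed in 25 of 25 settings (-1.99 to -1.15) and KLF5 in 24 of 25. At 10 µM against 0 µM, the called count of 1 became 0 with averaged probe sets, 3 with no fold threshold and 0 with the actin covariate. The 3 members past the adjusted p became 1 with averaged probe sets (KLF5), 1 with the methods' t-test (HNF4G), 1 with quantile normalization (HNF4G), 0 with the actin covariate and 1 when 10 µM replicates 2 and 3 were left out (HNF4G), an alternative chosen after seeing the data. These are only the largest moves. GATA6 passed in 9 of 25 settings, so it dropped out in others too, where HNF4G and KLF5 still passed. KLF4 passed as lower in 3 settings. At 10 µM against 5 µM, no member was called by limma except 1 (KLF4) with no fold threshold. The count of 1 past the adjusted p became 0 without a filter on dim genes, without probe sets ending _x_at or _s_at, with the methods' t-test, with equal array medians, with the actin covariate and with the 2 arrays left out, and 2 with averaged probe sets (KLF4 lower, SPDEF higher). Leaving out 1 array in turn gave 0 to 1. Differences that changed sign were GATA6 with averaged probe sets (0.50 at 5 µM against 0 µM, -0.61 at 10 µM against 5 µM), whose second probe set is below the floor, and KLF5 with averaged probe sets at 10 µM against 5 µM (-0.07). KLF4 at 5 µM against 0 µM was -0.03 with equal medians. SPDEF at 10 µM against 0 µM was -0.07 with quantile normalization, -0.27 with equal medians, -0.20 with the actin covariate and -0.06 to 0.08 when 1 array was left out (below 0 without 0 µM replicate 1, 0 µM replicate 2 or 10 µM replicate 1), and at 10 µM against 5 µM it was -0.01 with the actin covariate. Among list genes, APOA2 at 10 µM against 0 µM, below the floor in both groups, was 0.28 with low signals raised to the floor, -0.81 to 0.47 when 1 array was left out, and 0.75 with 10 µM replicates 2 and 3 left out. CYP3A4 was -0.02 with equal medians and KLF16 0.23 with the actin covariate. Calls also ended for CDHR5 at 10 µM against 0 µM with averaged probe sets (0.83), quantile normalization (0.90), equal medians (0.79) and the methods' t-test (adjusted p = 0.107), for HES4 there with equal medians (0.97) and the t-test (adjusted p = 0.104), for ELF3 there with quantile normalization (-0.95), for NKX2-2 there with low signals raised to the floor (adjusted p = 0.0615), and for CDKN1A (adjusted p = 0.0601), MUC2 (0.113) and BIRC5 (0.0639) between the doses with the t-test. Apart from the probe set rule, the cause of these changes was not tested. Signals near the floor limit HNF4G 207456_at, ATOH1, CDX1 and CDX2.

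Samples share replicate numbers across doses. In their deviations from the group means, same-numbered arrays correlated from -0.09 to 0.18, and differently numbered ones from -0.25 to 0.23. No strong shared effect of the number was seen, but this cannot show whether same-numbered cultures were handled together. The main fit did not pair them. With the replicate number as a block, 1 member was called at 5 µM and 1 at 10 µM against 0 µM, and 3 passed the adjusted p in each. Between the doses 0 were called by limma and 1 (KLF4) passed the adjusted p. These are the counts without the block, which, among the named genes, ended only the calls of INSM1 (adjusted p = 0.0528) and KLF16 (adjusted p = 0.0529) between the doses. Of all genes, 1015 higher and 152 lower were then called at 5 µM, 713 and 179 at 10 µM, and 29 and 236 at 10 µM against 5 µM.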
